A study of Mus musculus with 12 samples.

Results

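Mouse submandibular glands hold granular convoluted tubules, the duct segments that secrete kallikreins, epidermal growth factor (EGF), nerve growth factor and renin into saliva. These segments are larger in males and depend on androgens and thyroid hormone, and their serine proteases of the Klk1 family cleave kininogen, prorenin and growth factor precursors. The genes followed here were Klk1, Klk1b5, Klk1b11, Klk1b22, Klk1b26, Egf, Ren1 and Smr3a, chosen as every probe set annotated with 1 of these symbols alone. That rule gave 8 probe sets of 22626 tested, for 5 of the 8 genes, out of 12393 genes with a probe set of their own. Klk1 had 3 probe sets, Klk1b5 had 2, and Klk1b11, Egf and Smr3a had 1 each. Klk1b22 and Klk1b26 were represented only by probe sets annotated to a second kallikrein as well, and Ren1, which encodes renin, was not analysed here.

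Spontaneous salivary tumors were profiled on Affymetrix mouse arrays, 1 array per tumor and 4 tumors per genotype: MMTV-ras/p53-/- (KO), MMTV-ras/p53R172H/R172H (MT) and MMTV-ras/p53+/+ (WT). All 12 tumors carried the MMTV-ras transgene, which is driven by a mouse mammary tumor virus promoter active in salivary and mammary epithelium. They came from mice of a mixed C57BL/6 and BALB/c background. The study reports salivary tumor onset earliest in KO mice, later in MT mice and latest in WT mice, so age may differ with genotype. The comparisons ask whether loss of p53, or its R172H mutation, is associated with different expression in tumors of this tissue. The labels give neither the sex nor the age of each animal, the study describes a minority of females among its mice, and the labels do not state whether the tumors of a genotype were taken from separate mice, although the methods list the 4 WT tumors under separate identifiers. The p-values therefore cover the variation from tumor to tumor in this set and may not extend to animals. Values are log2 expression levels, on which a difference of 1 unit is a 2-fold difference.

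The 12 arrays had medians of 6.85 to 6.97. Bacterial poly-A control probe sets averaged 10.38 to 10.56 in MT1, MT2 and MT3, against 3.98 to 4.23 in the other 9 tumors, which parts the MT tumors into 2 sets, and no source names the reason. The 18S ribosomal RNA controls read 7.36 to 8.03 in KO tumors, 6.41 to 7.66 in MT tumors and 7.51 to 9.33 in WT tumors, and their part in the results was not tested. Trp53, the altered gene, was not analysed here as a check of the labels.

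Klk1, Klk1b5, Klk1b11, Klk1b22 and Klk1b26 lie in 1 cluster of 14 Klk1-family genes on chromosome 7, from Klk1b8 to Klk1, with 0 other protein-coding genes among them. Egf lies on chromosome 3, Ren1 on chromosome 1 and Smr3a on chromosome 5. RefSeq promoter windows of the GRCm38.p6 build (300 bases, 250 of them before the start site) were found for all 8 genes. The 250 bases before the start sites of 3 kallikreins are shown because these genes shared 1 expression pattern in part. Klk1b5 (chr7:44216224-44216473, plus strand) and Klk1b11 (chr7:43995627-43995876, plus strand) have TTTAAA in capitals, and Klk1 (chr7:44225110-44225359, plus strand) has in capitals the longest run of bases it shares with Klk1b5, 18 bases.
Klk1b5: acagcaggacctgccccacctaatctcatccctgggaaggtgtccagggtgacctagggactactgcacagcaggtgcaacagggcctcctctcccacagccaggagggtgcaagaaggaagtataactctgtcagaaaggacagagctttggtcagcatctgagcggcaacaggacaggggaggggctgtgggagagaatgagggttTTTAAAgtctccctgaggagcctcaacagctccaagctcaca
Klk1b11: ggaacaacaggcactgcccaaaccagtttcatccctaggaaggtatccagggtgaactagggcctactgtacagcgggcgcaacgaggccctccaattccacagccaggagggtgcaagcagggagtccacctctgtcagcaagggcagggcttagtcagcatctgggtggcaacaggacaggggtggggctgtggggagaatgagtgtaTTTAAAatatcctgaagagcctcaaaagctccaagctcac
Klk1: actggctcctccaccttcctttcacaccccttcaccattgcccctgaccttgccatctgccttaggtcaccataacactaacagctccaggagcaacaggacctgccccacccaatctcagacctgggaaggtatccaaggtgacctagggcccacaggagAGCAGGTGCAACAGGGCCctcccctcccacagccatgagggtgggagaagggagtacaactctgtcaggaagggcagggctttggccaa
TTTAAA starts 42 bases before the start site of Klk1b5 and 40 bases before that of Klk1b11. The run of 18 bases starts 89 bases before the annotated start of Klk1 and 181 bases before that of Klk1b5. Over the whole windows, Klk1b5 and Klk1b11 were identical at 85.0% of 300 aligned columns, and Klk1b11 and Klk1b26 at 91.6% of 286. Klk1 aligned with Klk1b5 over 208 columns, of which 85.6% were identical.

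Each motif was searched on both strands. TATAAA, the core of the TATA box, was in the Ren1 window and in 0 of the 14 Klk1-family windows, beside 13.6% of all 32851 windows. AGAACA, a hexamer bound by androgen and glucocorticoid receptors, was in no window of the 8 genes and in 2 of the 14 Klk1-family windows, beside 19.0% of all windows. TTTAAA, which was chosen after the windows were seen, was in 13 of the 14 Klk1-family windows, beside 13.2% of all windows, and the exception was Klk1. The last 12 bases of the Klk1 window occur in the Klk1b5 window 1 base before its TTTAAA, so the corresponding stretch of Klk1 lies past the end of its window. A match describes the letters and is not a binding site.

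The Klk1-family genes and Egf were highest in 1 tumor without p53, KO3, and Klk1 was raised in KO1 as well, while Klk1b5 read near the low end of the array in the other KO tumors and the MT tumors. Klk1, the tissue kallikrein that releases kinins from kininogen, had levels of 7.87, 4.10, 11.64 and 3.96 in the KO tumors (1415837_at). Its levels were 4.02, 3.90, 3.90 and 4.17 in the MT tumors and 5.39, 4.32, 4.11 and 5.02 in the WT tumors. KO3 was highest and KO1 next, with KO2 and KO4 inside the range of the MT tumors and below every WT tumor. The value of KO3 exceeded 98.3% of the probe sets on its array, that of KO1 65.3%, and those of the MT tumors no more than 6.86%.

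A second Klk1 probe set, 1448107_x_at, differed from the first by at most 0.23 in any tumor. It read 7.93, 4.21, 11.60 and 4.19 in KO tumors, 4.05, 3.85, 3.96 and 4.18 in MT tumors, and 5.37, 4.29, 4.30 and 4.90 in WT tumors, so all 4 MT tumors lay below all 4 WT tumors. The third, 1455977_x_at, stayed at 3.78 to 4.39 in KO tumors, 3.89 to 4.12 in MT tumors and 3.76 to 4.04 in WT tumors. It read 4.39 in KO3, the highest of the 12, where the other 2 Klk1 probe sets were above 11.

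Klk1b5, a Klk1-family serine protease, was high in KO3 alone. By 1419010_x_at it had levels of 4.37, 4.13, 10.35 and 4.28 in KO tumors, 4.19, 4.15, 4.20 and 4.29 in MT tumors, and 4.75, 5.44, 4.95 and 4.43 in WT tumors. KO1, in which Klk1 was high, had Klk1b5 below every WT tumor. By 1449313_at the levels were 4.01, 4.04, 10.16 and 4.10 in KO tumors, 3.91, 3.88, 3.83 and 3.99 in MT tumors, and 4.54, 4.96, 4.51 and 4.23 in WT tumors. Both probe sets put all MT tumors and 3 of the 4 KO tumors below all WT tumors, and KO3 above the next tumor, WT2, by 4.91 and 5.20 log2 units.

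Klk1b11, another protease of the family, was at 5.02, 5.04, 9.22 and 5.15 in KO tumors. It was at 4.96, 4.93, 4.97 and 4.98 in MT tumors and at 6.02, 6.80, 5.78 and 5.65 in WT tumors. The 4 MT tumors spanned less than the difference between any 2 neighboring WT tumors, and none of the MT tumors reached the lowest WT tumor. KO3 lay 2.41 above WT2, the next tumor in order.

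Egf, which encodes the precursor of EGF, a ligand of the receptor Egfr, was at 5.24, 5.81, 10.39 and 7.85 in KO tumors, 5.56, 5.70, 6.31 and 5.41 in MT tumors, and 7.05, 6.35, 7.08 and 7.17 in WT tumors. KO3 was again the highest, by 2.54 over KO4, and KO4 was above all WT tumors, while KO1 and KO2 were below all of them. The MT and WT tumors did not overlap, with MT3 at 6.31 and WT2 at 6.35 as the nearest pair.

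Smr3a, a secreted salivary protein named for its androgen regulation in the submaxillary gland, behaved unlike the other 4 genes. It was at 12.42, 10.76, 7.65 and 10.91 in KO tumors, 11.01, 5.58, 12.17 and 13.53 in MT tumors, and 13.27, 8.81, 13.08 and 13.32 in WT tumors. KO3 was the lowest KO tumor and the 11th of 12, MT2 was the lowest of all, and WT2 stood apart from the other WT tumors. The 3 genotypes overlapped, and in 9 tumors Smr3a exceeded at least 96.0% of the probe sets on the array.

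**Figure D1:**
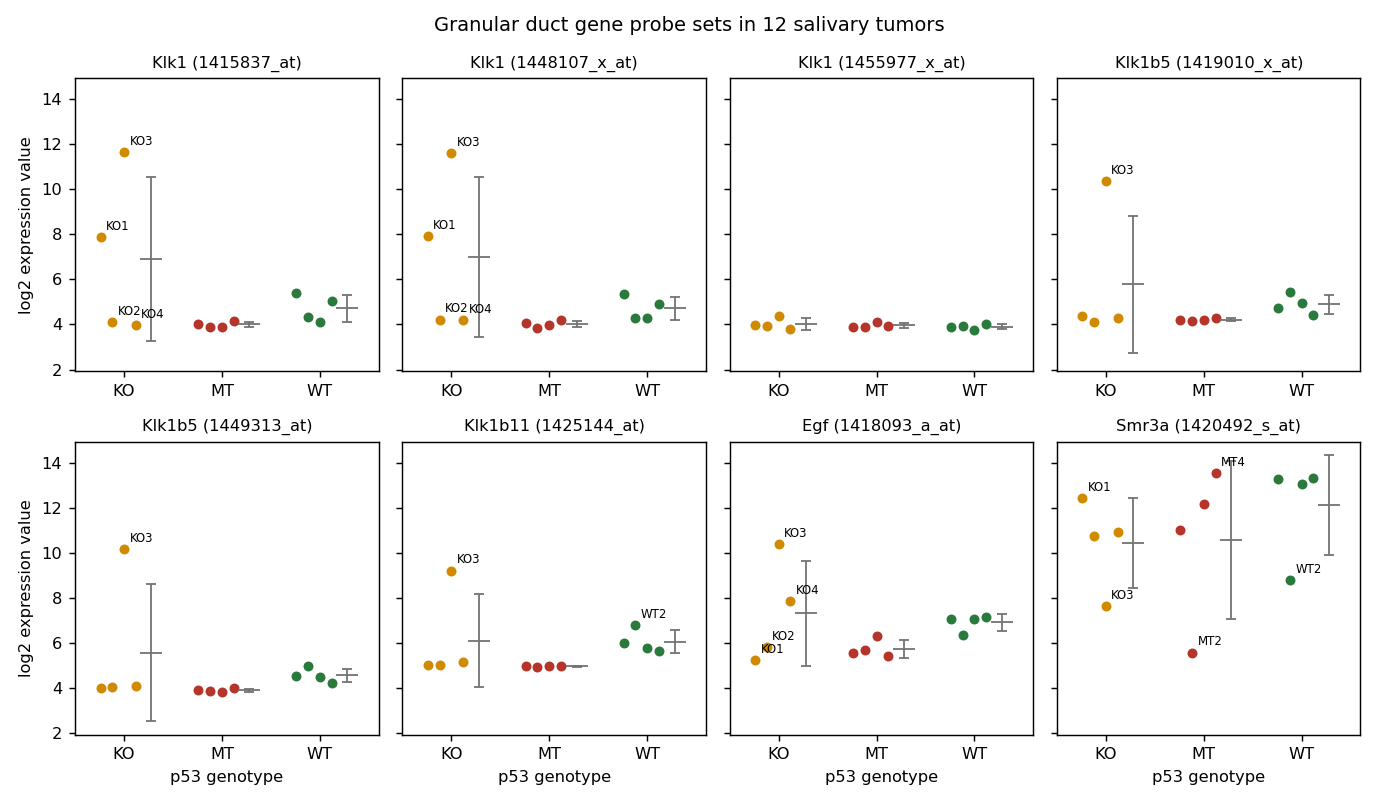
Log2 expression value (vertical axis) of each of the 8 probe sets in KO, MT and WT tumors, 1 point per tumor in the order of its number, with the mean and SD of each genotype in gray (n = 4) and a label on tumors more than 0.9 from their group's median. KO3 sits at 9.22 to 11.64 in 6 panels, Klk1 is also raised in KO1, and Smr3a is spread within every genotype.

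The mean level of Klk1 was 6.89 ± 3.65 in KO tumors, 4.00 ± 0.13 in MT tumors and 4.71 ± 0.60 in WT tumors (SD, n = 4 each; 1415837_at). That of Klk1b11 was 6.11 ± 2.07 in KO tumors, 4.96 ± 0.02 in MT tumors and 6.06 ± 0.52 in WT tumors. For Klk1 (2 probe sets), Klk1b5 (both probe sets), Klk1b11 and Egf the means ran from KO to WT to MT tumors, and the KO mean did not differ from the others beyond its spread. In bulk tumors, fewer cells of a type and less RNA per cell cannot be told apart.

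In KO tumors compared to WT tumors, 0 of the 8 probe sets passed an adjusted p of 0.05 with limma, where 4.57% of all probe sets did, and 0 had an unadjusted p under 0.05. Of the 8, 7 were higher and 1 was lower in KO tumors, with a median difference of 0.65 beside -0.02 over all probe sets. Klk1 differed by 2.18 ± 1.34 (SE; adjusted p = 0.351, 95% interval -0.76 to 5.13) and Klk1b5 by 0.89 ± 1.12 (adjusted p = 0.669; 1419010_x_at). Klk1b11 differed by 0.05 ± 0.78 (adjusted p = 0.979) and Egf by 0.41 ± 0.87 (adjusted p = 0.811). Smr3a differed by -1.68 ± 1.67 (adjusted p = 0.575), with KO3 the lowest KO tumor. The 2-group SAM at an FDR of 5% called 0 of the 8, beside 8.11% of all probe sets, and the methods' t-test called 0, beside 0.0442% of all (10 probe sets).

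These differences turned on KO3. Without it, Klk1b5 differed by -0.63 (adjusted p = 0.113) and -0.51 (adjusted p = 0.101), Klk1b11 by -0.99 (adjusted p = 0.0572) and Egf by -0.61 (adjusted p = 0.529), each with the sign turned. Klk1 differed by 0.60 (adjusted p = 0.702) and 0.73 (adjusted p = 0.617), with KO1 as its 1 high tumor. In the 3 remaining KO tumors, both Klk1b5 probe sets and Klk1b11 lay below all WT tumors, 3 of 8 probe sets beside 11.0% of all. KO3 was left out because it was the highest tumor for these same probe sets, which was not the case for probe sets at large. The shares are therefore not alike, and no excess can be read from them. Differences given without KO3 carry the same selection. With KO3 included, 0 of the 8 lay below all WT tumors, beside 8.37% of all.

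In MT tumors compared to WT tumors, 0 of 8 probe sets passed with limma, beside 0.367% of all, and 0 had an unadjusted p under 0.05. By the ranges, 5 of 8 were lower in all 4 MT tumors than in any WT tumor: 1 of Klk1, both of Klk1b5, Klk1b11 and Egf. The same held for 6.44% of all probe sets. The MT values of the Klk1 and Klk1b5 probe sets among these exceeded only 2.88% to 8.39% of the probe sets on their arrays. Their WT values were also low and exceeded 6.81% to 24.1%, and the filter on dim probe sets removed every kallikrein. MT values of Klk1b11 exceeded 16.5% to 18.6% and WT values 28.0% to 49.1%. For Egf the MT values exceeded 25.6% to 39.1% and the WT values 40.4% to 53.8%. The median difference was -0.71, beside -0.01 over all probe sets, with 7 probe sets lower and 1 higher. Klk1b11 differed by -1.10 ± 0.78 (SE; adjusted p = 0.458, 95% interval -2.81 to 0.60), Egf by -1.17 ± 0.87 (adjusted p = 0.483) and Klk1 by -0.71 ± 1.34 (adjusted p = 0.807; 1415837_at).

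The spread in this fit is shared by the 3 genotypes and so includes KO3. Without KO3, the SE of the MT minus WT difference of Klk1b11 was 0.21 and its adjusted p 0.0766 with limma. That of Klk1b5 was 0.14 and its adjusted p 0.087 (1449313_at), and Egf had an adjusted p of 0.239. KO3 was left out because it was highest for these probe sets, so these values carry that selection. With limma on the 8 MT and WT tumors only, the adjusted p was 0.105 for Klk1b11. It was 0.112 (1449313_at) and 0.143 (1419010_x_at) for Klk1b5. The 2-group SAM, which uses only the MT and WT tumors, called 4 of 8 lower in MT tumors, both Klk1b5 probe sets, Klk1b11 and Egf, beside 6.40% of all probe sets called in either direction. The methods' t-test called 0 probe sets of all 22626. With the poly-A control groups as a block, where MT4 alone stands for the MT genotype beside KO and WT tumors, the difference is that of MT4 from the WT mean, -1.08 for Klk1b11 and -1.50 for Egf.

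Smr3a differed by -1.54 ± 1.67 between MT and WT tumors (adjusted p = 0.641). Without MT2, the tumor at 5.58, it differed by 0.12 (adjusted p = 0.974), so its direction rested on that tumor. With the poly-A block the value is that of MT4 alone against the WT mean, 1.41.

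In MT tumors compared to KO tumors, 0 of 8 passed with limma, beside 0.00884% of all, and 1 probe set of Klk1 (1448107_x_at) had an unadjusted p under 0.05. It differed by -2.98 ± 1.30 (adjusted p = 0.496), and by -1.44 without KO3 (adjusted p = 0.564). The 4 MT tumors lay below all KO tumors for 3 of 8 probe sets, 1 of Klk1, 1 of Klk1b5 and Klk1b11, beside 1.97% of all. The margins were small. The nearest MT and KO tumors were at 4.18 and 4.19 for Klk1 (1448107_x_at) and 3.99 and 4.01 for Klk1b5 (1449313_at). For Klk1b11 they were at 4.98 and 5.02. The MT values of these Klk1 and Klk1b5 probe sets exceeded at most 7.02% of their arrays, and the other probe sets of both genes overlapped. Without KO3, Klk1b5 differed by -0.05 and -0.14, and Klk1b11 by -0.11, between MT and KO tumors. Across the 3 genotypes at once, the F test of limma called 0 of 8, beside 2.34% of all, and the 3-group SAM at an FDR of 1% called 0 of 8, beside 0.566% of all (128 probe sets). With 5 other seeds of its permutations, added after the data were seen, it called 132 to 329 of all probe sets and 0 of the 8.

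**Figure D2:**
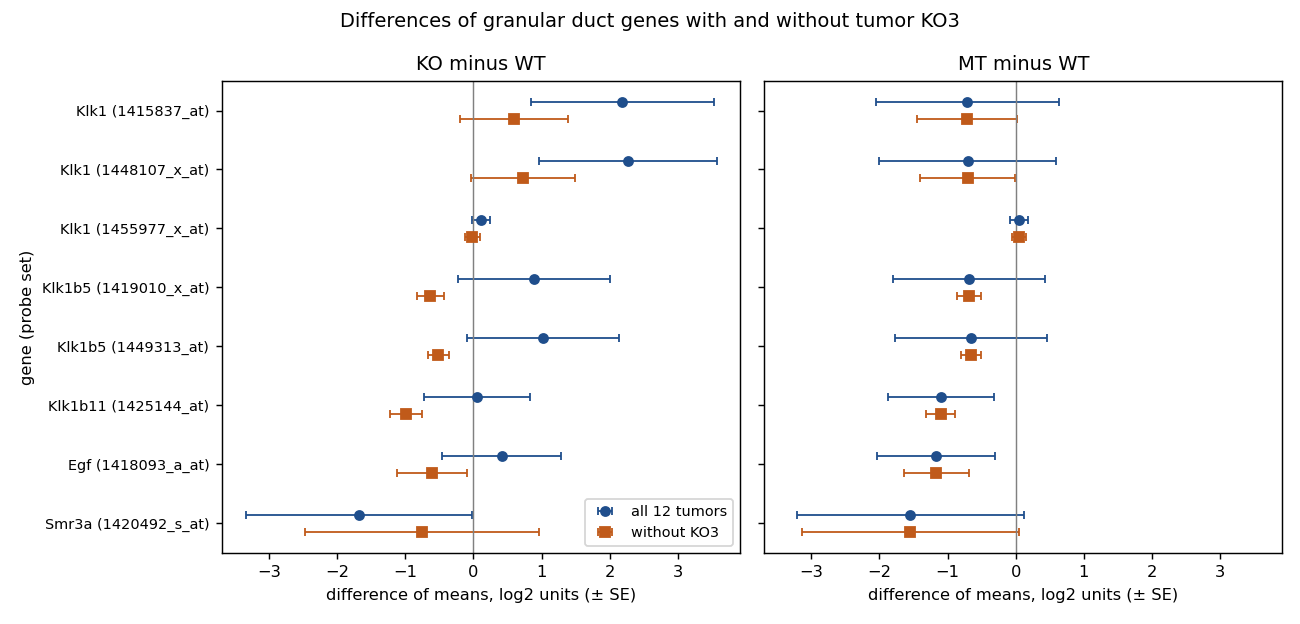
Difference of means in log2 units (horizontal axis, bars ± SE from limma) for each probe set (vertical axis), KO minus WT on the left and MT minus WT on the right, from all 12 tumors (circles) and without KO3 (squares). On the left the squares of Klk1b5, Klk1b11 and Egf lie below 0 and their circles above it, and on the right each pair has the same value, with a shorter bar without KO3.

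KO3 stood more than 2 log2 units above all other tumors in 18 of 22626 probe sets, of which 6 were the Klk1, Klk1b5, Klk1b11 and Egf probe sets above. Counting these, 12 of the 18 belonged to the Klk1 family, Egfbp2 included, and 3 had no annotated symbol. Other tumors had 0 (MT3) to 89 (WT1) such probe sets. The leading gene in KO3 was Crisp3, a cysteine-rich secretory protein of mouse granular ducts, at 10.87 in KO3 and 3.27 to 4.22 in the other 11 tumors. Klk1b16, which encodes gamma-renin, was at 10.56 in KO3 and at most 4.29 in the others.

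All 15 Klk1-family probe sets were highest in KO3. Among the 10 further family genes listed, 7 were measured by a probe set of their own, all 7 were highest in KO3, and 0 were called in any comparison. Their mean level was 8.19 in KO3, 4.63 to 4.81 in the other KO tumors, 4.75 to 4.91 in MT tumors and 4.92 to 5.18 in WT tumors. Egfbp2, an EGF-binding protein that is itself a kallikrein, was at 9.62 in KO3, and Klk1b21 at 8.93, Klk1b1 at 7.73, Klk1b8 at 7.38, Klk1b27 at 7.27 and Klk1b24 at 5.87.

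The 2 probe sets that cover Klk1b22 and Klk1b26 together with a paralog had the same high tumor. The one shared by Klk1b9 and Klk1b22 (1425182_x_at) read 11.52 in KO3 and at most 6.16 in the other tumors, and the one shared by Klk1b26 and Egfbp2 (1419090_x_at) read 11.14 in KO3 and at most 6.11 in the others. Which paralog gave these values cannot be told apart. The same limit holds for probe sets of this family whose name ends in _x_at, since such sets can bind several near-identical transcripts.

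**Figure D3:**
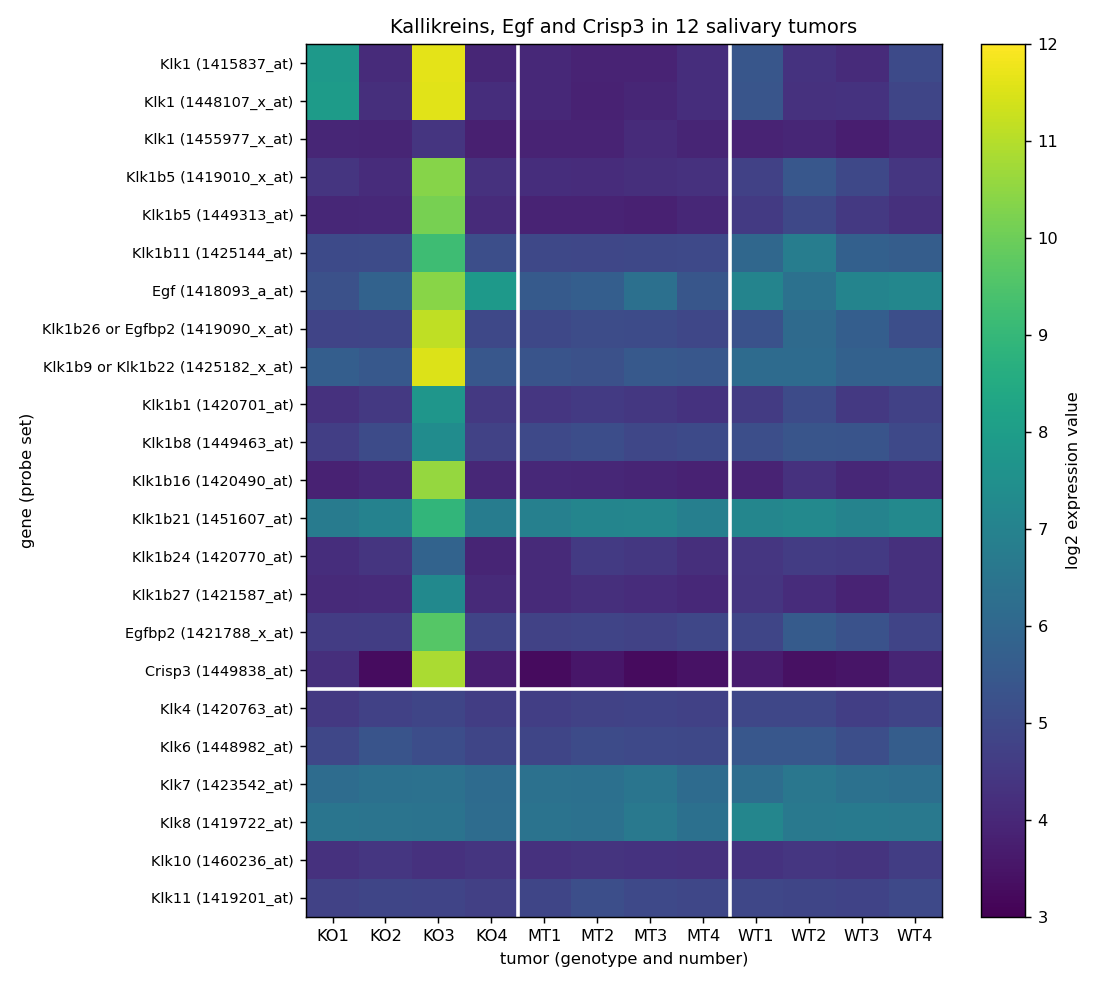
Log2 expression value (color) of Klk1-family kallikreins, Egf and Crisp3 (above the horizontal white line) and of kallikreins outside the Klk1 family (below it) in the 12 tumors, 1 column per tumor and 1 row per probe set. The KO3 column is high in the upper block, with Klk1 also raised in KO1 and Egf at 7.85 in KO4. The lower block differs little across tumors on this color scale.

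Kallikreins outside the Klk1 family did not share the high level in KO3. Klk6 and Klk8 lay lower in all MT than in all WT tumors by narrow margins, which held for 6.44% of all probe sets. Klk6 was at most 5.05 in MT tumors and at least 5.15 in WT tumors, and Klk8 at most 6.632 and at least 6.635. Of 12 listed, 6 were measured, 0 were highest in KO3 and 0 were called in any comparison. Their mean level was 5.16 to 5.37 in KO tumors, 5.22 to 5.37 in MT tumors and 5.34 to 5.50 in WT tumors. Klk7 and Klk8, epidermal and neural proteases, were at 6.35 and 6.44 in KO3, inside the range of the other tumors.

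Among other secreted products of granular ducts and growth factors, 8 of 12 listed genes were measured and 1 was called, in both comparisons with WT. That gene, Igf1, which encodes insulin-like growth factor 1, was lower by 0.99 in KO tumors (adjusted p = 0.005 with limma; 1452014_a_at) and by 0.92 in MT tumors (adjusted p = 0.019), and its KO3 value of 6.68 was close to those of the other KO tumors. Only Crisp3 of the 8 was highest in KO3. Tgfa, another ligand of Egfr, was at 8.17 in KO3, and Tgfb1 at 8.68.

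Of the receptors and other ligands of the EGF family, 8 of 9 were measured and 0 were highest in KO3. Erbb2, a coreceptor that binds no ligand by itself, was called higher in KO tumors, with 9.05, 8.54, 8.88 and 7.85 in KO tumors against 6.93, 7.61, 7.18 and 7.63 in WT tumors, a difference of 1.24 (adjusted p = 0.029). It was higher by 1.00 in MT tumors without passing (adjusted p = 0.102). Egfr was at 8.30 in KO3, within the 7.75 to 8.53 of the other KO tumors, and Erbb3, Hbegf and Btc differed from WT tumors by 0.37, 1.07 and 0.61 in KO tumors, with 0 of them called.

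Renin-angiotensin genes (5 of 8 measured), kinin system genes (5 of 6) and hormone receptors of granular ducts (3 of 4) had 0 calls in the 3 comparisons. Agt, the substrate of renin, was at 6.53, 6.78, 6.74 and 10.43 in KO tumors and 8.15, 8.93, 8.38 and 10.51 in WT tumors, with overlap between the groups. Atp6ap2, a receptor that binds renin and prorenin, was at 10.24 in KO3 and 9.83 to 10.83 in the other tumors. Kng1, which encodes kininogen, the substrate of Klk1, was at 5.78 in KO3 and at 8.42 in KO2, where Klk1 was low. Nr3c1, the glucocorticoid receptor, was at 8.34 in KO3 and Thra, a thyroid hormone receptor, at 7.48. Thrb, another thyroid hormone receptor, was highest in KO3 at 5.98, with KO2 next at 5.94.

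Markers of other cell types were set beside KO3 and beside the MT and WT difference. Of 12 acinar and demilune genes, 11 were measured, and their mean level was 9.28 to 10.08 in KO tumors, 9.45 to 10.25 in MT tumors and 10.80 to 11.81 in WT tumors. This mean therefore moved with genotype in the same direction as Klk1b11 outside KO3, and its part in the result was not tested. The list was split. By their highest-mean probe sets, Aqp5 was higher than in WT tumors by 0.50 in KO and 0.32 in MT tumors. Slc12a2 was higher by 0.28 and 0.19 and Pip by 1.57 and 0.21, and all other measured genes of the list were lower in both. Prpmp5, a proline-rich salivary protein, and Dcpp1, a demilune protein, were lower by 4.91 (adjusted p = 0.007) and 3.16 (adjusted p = 0.018) in KO tumors, and these 2 were the only genes of the list called.

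KO3 was low in some acinar genes and not in others. Prpmp5 was at 5.45 in KO3, the lowest of the 12, with KO4 next at 7.08. Of the other high genes of the list, Aqp5, a water channel, was at 12.22 in KO3, Slc12a2, a chloride cotransporter, at 12.33 and Car6, a secreted carbonic anhydrase, at 12.42, each inside the range of the other tumors. Amy1, Prol1 and Pip are named after their values were seen. Amy1, salivary amylase, was at 4.65 in KO3 and 4.59 in KO2, against 10.17 to 13.29 in WT tumors, and Bpifa2, parotid secretory protein, was at 11.08 in KO3, the lowest of the 12. Prol1, a submandibular mucin-like protein, was at 11.68 in KO3, where the other KO tumors had 4.77 to 9.29, and Pip was at 11.39, the highest of the 12. Smr3a was low in KO3 and MT2, and Amy1 was at 7.40 in MT2.

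**Figure D4:**
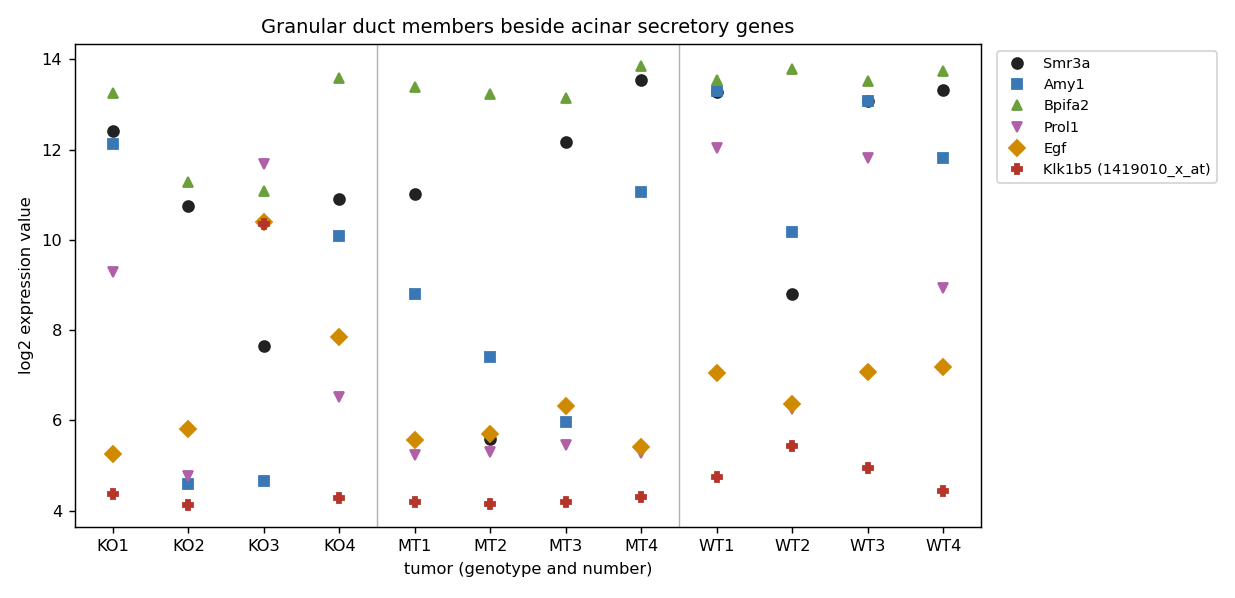
Log2 expression value (vertical axis) of Smr3a, Egf and Klk1b5 beside the acinar genes Amy1, Bpifa2 and Prol1 in each tumor (horizontal axis), 1 point per gene and tumor, with KO, MT and WT tumors parted by vertical lines. In KO3, Klk1b5, Egf and Prol1 lie at 10.35, 10.39 and 11.68 while Smr3a and Amy1 lie at 7.65 and 4.65, and in WT2 Smr3a lies at 8.81.

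Other duct genes (10 of 10 measured), myoepithelial genes (6 of 6), skeletal muscle genes (4 of 4) and adipocyte genes (2 of 4) had 0 calls. The mean level of the duct genes was 9.63 to 10.11 in KO tumors, 9.20 to 9.69 in MT tumors and 8.82 to 9.75 in WT tumors, with KO3 at 9.88. Of the 10 duct genes, 3 were highest in KO3, each by a small margin. Kit was at 11.54 (next 11.49 in KO4), Ehf at 11.91 (next 11.73 in KO2) and Ascl3 at 6.29 (next 6.18 in WT3). Myoepithelial genes averaged 6.64 in KO3 and 6.28 to 6.37 in the other KO tumors. Skeletal muscle genes averaged 4.89 to 5.45 in all tumors but MT1, which stood at 6.31. Adipocyte genes averaged 5.75 in KO3, and WT3 was the highest tumor. Among the 4 sex-linked genes measured, Xist read 5.77 to 6.18 in the 12 tumors by its highest probe set (1436936_s_at) and 3.77 to 4.06 by its lowest (1427262_at). The Y-linked Eif2s3y was at 8.62 in KO3, 8.55 in KO1, 3.57 in KO2, 3.78 in MT2 and 5.04 in MT3. The Y-linked Uty (1426598_at) was at 6.79 in KO2, 4.14 in MT2, 4.74 in MT3 and 6.26 in WT2. Kdm5d, also Y-linked (1424903_at), was at 5.61, 3.89, 4.35 and 5.23 in the same tumors. For KO2 these genes therefore differ, and the sex of the animals was not assigned.

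Across the 12 tumors, Klk1b5 and Klk1b11 were the most alike pair of the 5 genes (Pearson r = 0.96, a description with no test), and r was 0.95 without KO3. Klk1 and Klk1b5 had r = 0.86 with KO3 and 0.06 without it, and Egf and Klk1b5 0.84 and 0.32, so that their likeness rested on that tumor. Smr3a had r of -0.41 to -0.22 with the other 4 genes, and 0.02 to 0.34 without KO3. By the same measure, the genes most like Klk1b5 were Egfbp2 (0.995), Klk1b1 (0.99) and Klk1b16 (0.98), and without KO3 their values were 0.90, 0.72 and 0.55.

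The genes most like Klk1b11 were Klk1b1 (r = 0.95), Egfbp2 (0.94) and Klk1b8 (0.94), and those most like Egf were Klk1b1 (0.85), Egfbp2 (0.84) and Klk1b16 (0.83). Klk1 was most like Crisp3 (0.92), Wfdc12 (0.89) and Bmp5 (0.88), with 0.82, 0.79 and 0.81 without KO3. Smr3a was most like Snrpd3 (0.89), Nop58 (0.84) and Cox5a (0.84), none of them a kallikrein. The mean of the 5 genes was most like Crisp3 (0.86), Klk1b27 (0.83), Egfbp2 (0.82), Klk1b16 (0.82) and Cetn3 (0.82), followed by Klk1b1, Gys2, Zfp2, Kif23 and Vmn1r54 at 0.80 to 0.81. Of these 10, Cetn3 kept a value of 0.84 without KO3, while Klk1b16 had -0.16. All of these values are across the same 12 arrays, which share their normalization.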

How the data were processed

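RNA from frozen tumor sections was labeled and hybridized to Affymetrix mouse arrays, 1 per tumor. The authors deposited log2 expression values per probe set, made with RMA according to the paper's methods (background correction, quantile normalization, median polish); the submitters' notes also name MAS5 and give no versions. Of 22690 probe sets, 64 controls were left out and 22626 tested; 20380 have 1 gene symbol, 691 several and 1555 none. The values were used as deposited. The 3 genotype means were estimated from all 12 arrays together (limma 3.58.1, R 4.3.3; lmFit and eBayes with 9 residual degrees of freedom) and compared 2-sided, with Benjamini-Hochberg adjustment over all probe sets and a threshold of 0.05, and the fit was tested on simulated data. SAM used 70 assignments for 2 groups and 100 permutations for 3. The methods' t-test was run per pair of genotypes with Benjamini-Hochberg adjustment. A probe set counted as lower by range where every tumor of a genotype lay below every tumor of the other. A gene's highest-mean probe set stood for it in levels and correlations. The alternatives dropped dim probe sets (kept: above the overall median in at least 4 arrays) or used median centering, quantile normalization, 8 tumors only, trend and robust moderation, array weights, tumor number or poly-A group as a block, leaving out each tumor, and other thresholds. Equal tumor numbers were not treated as pairs. Promoter windows came from RefSeq (GRCm38.p6), with local alignments by Biopython 1.88. Figures were drawn with matplotlib 3.10.9 in Python 3.11.15. The number of arrays limits the precision. Named genes follow a rule: every probe set of the 8 genes, up to 6 genes of each list (called ones first, then by level, with Amy1, Prol1 and Pip named outside it), and the genes of highest correlation. The lists were further Klk1-family and other kallikreins, other granular duct products, EGF family, renin-angiotensin, kinin, hormone receptor, acinar and demilune, other duct, myoepithelial, skeletal muscle, adipocyte and sex-linked genes. KO3 values and single genes with their KO3 levels were also chosen after their values were seen. The genes and lists were chosen with earlier results of these data known.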

Additional observations from a re-analysis of the deposited data

Results flagged for a closer look

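Of 24 groups of 4 tumors (8 probe sets in 3 genotypes), 5 held a tumor whose gap to the nearest other divided by the group's range exceeded Dixon's 95% critical value, where chance gives about 1 in 20. The groups share tumors, and some share a gene or its paralogs, so they are not independent and no excess can be read from the count. In KO tumors, KO3 stood apart for Klk1b5 at 10.35 (1419010_x_at; ratio 0.960) and 10.16 (1449313_at; ratio 0.986) and for Klk1b11 at 9.22 (ratio 0.970). In WT tumors, WT2 stood apart for Egf at 6.35 (ratio 0.854) and for Smr3a at 8.81 (ratio 0.947), in both as the lowest of the 4. No MT group held such a tumor.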

How the results depend on the processing

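The count of granular duct probe sets called was 0 under every alternative in the KO minus WT, MT minus KO and 3-genotype comparisons, and under all but 1 in MT minus WT, where the 2-group SAM at an FDR of 5% called 4. The range over leaving out 1 tumor at a time was 0 to 0 in each. With the tumor number as a replicate block, 0 were called in each comparison, and the Klk1b11 difference of MT from WT stayed at -1.10 (adjusted p = 0.442 with limma). The deviations of all 12 same-numbered pairs of tumors were positively correlated (0.0023 to 0.33), 6 of them above 0.1. Differently numbered pairs were not compared, so these values cannot decide whether the numbers pair the tumors. Of 24 single differences, 15 kept their direction under every alternative run and 9 did not, with 0 calls and a lowest adjusted p of 0.0572. Centering gave -0.0084 for Klk1b11 (KO minus WT) and -0.0011 for Klk1 1455977_x_at (MT minus WT), and the poly-A block gave 1.41 for Smr3a (MT minus WT). Leaving out single tumors moved KO minus WT from -0.017 to 0.19 for Klk1 1455977_x_at, -0.63 to 1.44 and -0.51 to 1.54 for Klk1b5, -0.99 to 0.41 for Klk1b11 and -0.61 to 1.11 for Egf. It moved MT minus WT of Smr3a from -2.65 to 0.12, and MT minus KO from -0.85 to 1.80 for Smr3a and -0.13 to 0.072 for Klk1 1455977_x_at. The filter on dim probe sets left only Egf and Smr3a of the 5 genes, so it gives no value for the kallikreins. Calls over all probe sets ranged from 196 to 1360 in KO minus WT and from 4 to 801 in MT minus WT when 1 tumor was left out, and array weights gave 3280 and 4973. The array weights raised KO minus WT to 3.62 and 3.58 for Klk1 (adjusted p = 0.0897 and 0.0843), 2.14 and 2.31 for Klk1b5, 1.06 for Klk1b11 and 1.04 for Egf, and gave -3.17 for Smr3a, with 0 of these called. The cause was not tested.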
